A study of Mus musculus with 4 samples.

Results

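The transcription factors Foxa1, Foxa2, Foxa3, Cebpa, Cebpb, Onecut1, Prox1 and Gata4, which help to set and hold the identity of hepatocytes, were followed on microarrays of primary mouse hepatocytes with and without an agonist of the liver X receptors (LXR). Members were all probes other than controls that the array files name for 1 of these 8 genes. This gave 8 genes of 34844 gene names and 10 probes of 55681, with 2 each for Foxa2 and Onecut1 and 1 for each other gene. The study compared hepatocytes given 1 µM GW3965, a synthetic LXR agonist, with hepatocytes given the solvent DMSO, on 2 arrays per group that the titles letter a and b. All cells came from mice of the strain labelled bl6, were cultured with 10% fetal bovine serum, and spent the night of treatment in 0.5% serum with 5 µM simvastatin and 100 µM mevalonic acid. Simvastatin blocks cholesterol synthesis and mevalonic acid is an early intermediate of that pathway, and the controls carried both. Inside the array files the treated samples are named GL, where their titles have GW, and the treatment is given here as the titles and labels have it. The labels do not say whether replicates are separate animals or cultures, so p-values measure only the spread between these samples, which may be technical.

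Hepatocyte identity is held by a small network of factors that bind the promoters and enhancers of liver genes, and of each other's genes. The FOXA proteins are pioneer factors with a winged helix domain that open chromatin at liver enhancers during development and keep them accessible in the adult. C/EBP alpha and C/EBP beta are leucine zipper proteins that bind the same kind of site, the first tied to metabolic genes of the quiescent adult liver and the second to acute phase and regenerative responses. Onecut1, also called HNF6, carries a cut domain and a homeodomain, Prox1 is a homeobox factor of the early liver bud that acts as a corepressor in the adult, and the zinc finger protein Gata4 works beside FOXA at liver enhancers. Gata4 is also known from the endothelial and stellate cells of the liver, and Cebpb from macrophages.

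Promoters of these genes from the RefSeq table on GRCm38.p6 are shown for the FOXA and C/EBP members, since of the 9 probes tested below Foxa3 had the widest gap between replicates and Cebpb the narrowest. The 250 bases before the first start site in that table are written 5′ to 3′ along the gene, with matches to the motifs named below in capitals.
Foxa1, chr12:57546112-57546361, minus strand: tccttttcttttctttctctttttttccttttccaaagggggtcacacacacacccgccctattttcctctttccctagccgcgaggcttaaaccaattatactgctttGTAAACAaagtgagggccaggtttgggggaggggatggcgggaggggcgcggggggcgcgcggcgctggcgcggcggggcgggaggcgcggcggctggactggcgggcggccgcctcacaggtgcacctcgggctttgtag
Foxa2, chr2:148046970-148047219, minus strand: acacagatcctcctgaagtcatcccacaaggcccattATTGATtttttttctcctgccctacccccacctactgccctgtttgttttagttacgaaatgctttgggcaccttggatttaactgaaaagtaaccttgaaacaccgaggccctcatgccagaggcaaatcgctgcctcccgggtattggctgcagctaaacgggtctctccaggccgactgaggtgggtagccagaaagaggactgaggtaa
Foxa3, chr7:19023540-19023789, minus strand: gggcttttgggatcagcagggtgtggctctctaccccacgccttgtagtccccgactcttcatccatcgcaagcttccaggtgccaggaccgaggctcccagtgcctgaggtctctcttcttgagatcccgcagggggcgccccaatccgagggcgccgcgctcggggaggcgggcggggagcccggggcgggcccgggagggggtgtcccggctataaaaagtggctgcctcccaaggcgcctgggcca
Cebpa, chr7:35119043-35119292, plus strand: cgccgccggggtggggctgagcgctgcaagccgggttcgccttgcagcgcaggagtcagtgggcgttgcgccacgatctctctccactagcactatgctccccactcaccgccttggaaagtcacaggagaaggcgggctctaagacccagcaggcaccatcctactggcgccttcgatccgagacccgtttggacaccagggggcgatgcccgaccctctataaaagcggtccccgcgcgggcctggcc
Cebpb, chr2:167688665-167688914, plus strand: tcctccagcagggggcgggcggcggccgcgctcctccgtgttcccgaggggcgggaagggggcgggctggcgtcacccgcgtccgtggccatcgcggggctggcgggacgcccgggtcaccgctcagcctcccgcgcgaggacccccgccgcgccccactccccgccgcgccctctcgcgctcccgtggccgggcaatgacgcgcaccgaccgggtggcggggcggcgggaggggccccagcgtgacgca

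Motifs were searched on both strands. For FOXA the letters were TGTTTAC, with the variants TATTTAC and, as the other variant, TGTTTGC. The C/EBP motif was TTGCNNAA, the ONECUT motif was ATCGAT or its variant ATCAAT, and the GATA motif was AGATAA. The nuclear receptor site was AGGTCA, and the LXR element was a pair of these in the same direction with 4 bases between them, so that it overlaps the single site. The table held 10 promoters for 7 of the 8 genes, with 3 start sites for Foxa2 and 2 for Prox1. Foxa1 had 1 FOXA match, at position -141 from its start site, where 9.73% of 32851 promoters held such a match. The first Foxa2 promoter had 1 ONECUT match, at position -213, against 7.4% of promoters, and the third had 1 GATA match, against 9.99%. The second Prox1 promoter had 1 FOXA match. Of the 10 promoters, 0 matched the C/EBP motif (9.56% of all promoters), 0 the nuclear receptor site (14%) and 0 the LXR element (0.0152%). A match is a run of letters in this window and was not tested for binding.

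Probes are strands of 60 bases, placed here on the mm9 build that the array files use. Both Foxa2 probes lie on the minus strand of chromosome 2, at chr2:147868669-147868728 and chr2:147868614-147868673, and share 5 bases, shown in capitals at the end of a stretch of the first and at the start of a stretch of the second. They begin at bases 2012 and 2067 of the same transcript, so that they read 2 neighbouring stretches of 1 messenger RNA.
Foxa2, brighter probe, bases 31 to 60: gctttatttatggcttataaatgtgTGTTC
Foxa2, dimmer probe, bases 1 to 30: TGTTCtggctagaatggccagaattccaca

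For Onecut1 the probes lie 26481 bases apart on the plus strand of chromosome 9 and were designed on different transcripts, which is why a stretch of each is shown. One, designed on the RefSeq transcript, lies at chr9:74710921-74710980, and the other, designed on an Ensembl transcript, at chr9:74737402-74737461.
Onecut1, RefSeq probe, bases 1 to 30: cttcggtgaccggcgcgcaggtcagcaatg
Onecut1, Ensembl probe, bases 1 to 30: atgagggaggaagaaccacggactagtacc

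The other members have 1 probe each. On the minus strand these lie at chr12:58641764-58641823 for Foxa1, chr7:19599053-19599112 for Foxa3, chr1:191945785-191945844 for Prox1 and chr14:63817858-63817917 for Gata4. On the plus strand they lie at chr7:35906517-35906576 for Cebpa and chr2:167515828-167515887 for Cebpb. Whether a probe lies in a coding or an untranslated stretch was not analysed here.

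Values below are processed signals on the log2 scale, with the array's own 75th percentile set to 0. Between 62.5% and 69.1% of probes were well above background on an array, most on GW3965 replicate b. Of the 20 hepatocyte markers listed, 20 were well above background on all 4 arrays, among them albumin (Alb), at 9.62 and 9.10 on GW3965 replicates a and b and 9.45 and 9.35 on DMSO replicates a and b. Markers of other liver cells were measured too: 13 of 13 for endothelial cells, 17 of 18 for macrophages and leukocytes, 12 of 14 for stellate cells and fibroblasts and 6 of 9 for cholangiocytes were well above background on all 4 arrays. As a check of the treatment, the LXR target Abca1 differed by 2.58 ± 0.39 on the log2 scale (SE), or 5.96-fold, with the GW3965 arrays higher, and Srebf1 by 1.24 ± 0.20, or 2.37-fold. Neither passed the test over all probes (limma, adjusted p = 1).

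The comparison of GW3965 with DMSO asks whether messages of the hepatocyte factors differ in cells given the LXR agonist. No difference was found that exceeded the wider of the gaps between replicates in the 2 groups. Of the 10 probes, 9 passed the filter on dim probes, which asks for a signal well above background on each array of a group, and limma called 0 of them at an adjusted p under 0.05, where 0% of all 35479 probes tested were called. An unadjusted p under 0.05 was reached by 0 of the 9, against 1.03% of all probes. The fit leaves out the replicate letter, so a gap shared by both groups counts as error and can widen the intervals. With the letter as a block, 1957 of the 35479 probes reached that level, against 365 without it, and again 0 of the 9. Since so few probes reach it in the main fit, 0 of 9 is weak evidence of no change, as are such counts on the lists below. The log2 difference ran from -0.36 for Onecut1 to 0.18 for Gata4, with a mean above that of DMSO in 3 (50.3% of all probes) and below it in 6, and a median of -0.065, against 0.0011 over all probes tested. GW3965 and DMSO arrays overlapped in 9 of 9, while 16.6% of all probes tested did not overlap. In 9 of 9 the difference was smaller than the gap between replicates in at least 1 group, as in 90.2% of all probes. With 2 arrays per group an exact permutation test cannot give a two-sided p below 0.333.

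**Figure D1:**
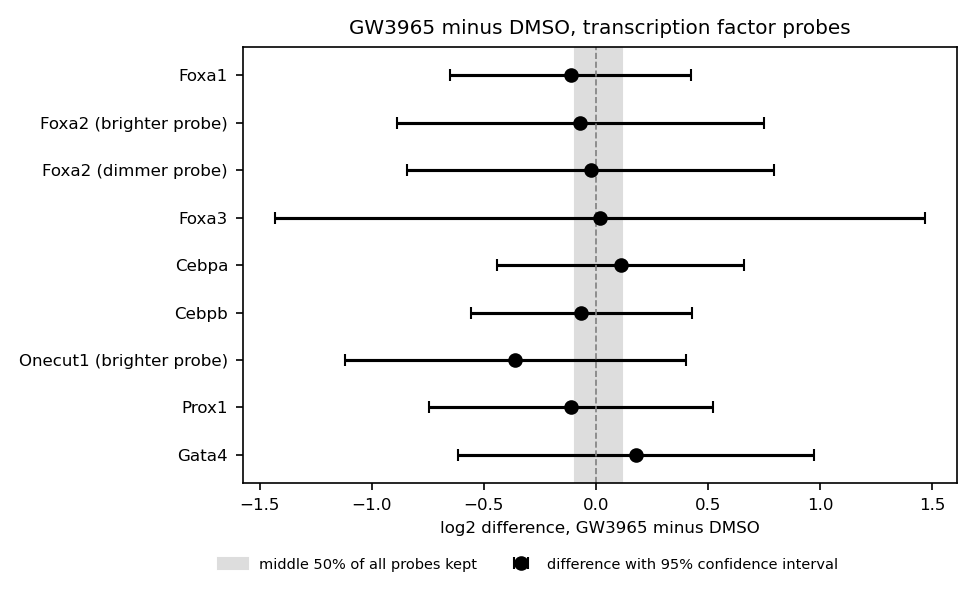
Log2 difference of GW3965 minus DMSO for each tested probe of the hepatocyte factors, with its 95% confidence interval from limma (2 arrays per group). The grey band runs from the lower to the upper quartile of all probes tested, -0.092 to 0.12, and each interval includes 0.

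Within the FOXA family, the mean of Foxa1 was slightly lower with GW3965. Foxa1 stood at 1.87 and 2.14 on GW3965 replicates a and b, and at 2.08 and 2.17 on DMSO replicates a and b. The GW3965 values straddle the lower of the DMSO values, and the group means were 2.01 ± 0.19 with GW3965 and 2.12 ± 0.06 with DMSO (SD, n = 2 each). The log2 difference was -0.11 ± 0.21 (SE), with a 95% confidence interval of -0.65 to 0.42, which corresponds to 0.637-fold to 1.34-fold (limma, adjusted p = 1).

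Foxa2 was read by its 2 neighbouring probes, and both gave the same order of arrays. The brighter probe stood at 2.52 and 1.80 on GW3965 replicates a and b, and at 2.40 and 2.07 on DMSO replicates a and b. On the dimmer probe the values were 0.23 and -0.48 with GW3965 and 0.079 and -0.29 with DMSO. GW3965 replicate a was the highest and GW3965 replicate b the lowest array on either probe, with the DMSO arrays between them. The log2 difference was -0.070 ± 0.32 (SE, interval -0.89 to 0.75) on the brighter probe and -0.023 ± 0.32 (interval -0.84 to 0.80) on the dimmer one.

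Foxa3, the FOXA paralog tied to metabolic genes of the adult liver, had the widest spread between replicates among the 9 probes. Its values were 0.37 and -0.55 on GW3965 replicates a and b, and 0.58 and -0.78 on DMSO replicates a and b. Replicate b was lower than replicate a by 1.89-fold with GW3965 and by 2.57-fold with DMSO, and the GW3965 values lay inside the range of the DMSO values. The log2 difference was 0.017 ± 0.56 (SE), with an interval from -1.43 to 1.47. A GW3965 mean 2.76-fold above that of DMSO was thus still inside the interval. This fit leaves out the replicate letter, and with the letter as a block the SE was 0.16. Between replicates a the difference was -0.20 and between replicates b 0.24. Its sign over all 4 arrays turned, to -0.033 with arrays centred on their median and to -0.0072 with normexp background correction.

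**Figure D2:**
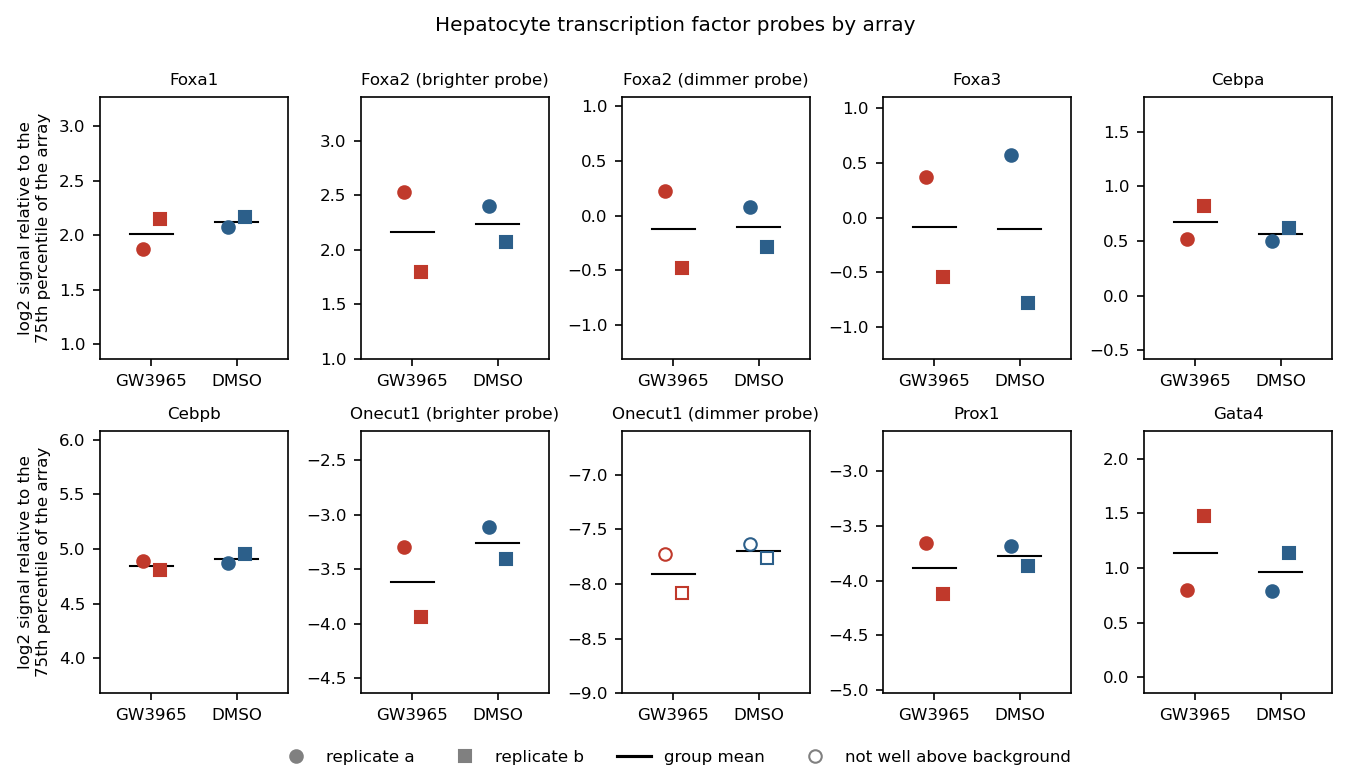
Log2 signal with the array's 75th percentile at 0 (vertical axis) for the 10 probes, with GW3965 arrays left of DMSO arrays, circles for replicate a, squares for replicate b and a bar for the group mean. Each panel spans the same range of log2 units around its own mean, and open symbols mark the Onecut1 probe that was not well above background on any array.

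Of the C/EBP members, Cebpb varied least across the 4 arrays among the 9 probes. It stood at 4.89 and 4.80 on GW3965 replicates a and b, and at 4.87 and 4.95 on DMSO replicates a and b, an SD of 0.061 over the 4. The group means were 4.84 ± 0.06 with GW3965 and 4.91 ± 0.06 with DMSO (SD, n = 2 each), and their ranges overlapped. Its log2 difference was -0.065 ± 0.19 (SE), with an interval of -0.56 to 0.43, or 0.680-fold to 1.34-fold (limma, adjusted p = 1).

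Cebpa, which restrains proliferation and drives metabolic genes in adult hepatocytes, stood at 0.52 and 0.83 on GW3965 replicates a and b. The DMSO arrays gave 0.50 for replicate a and 0.62 for replicate b. GW3965 replicate b was the highest array, while the other GW3965 array lay between the DMSO arrays. The log2 difference was 0.11 ± 0.21 (SE, interval -0.44 to 0.66).

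Onecut1, which takes part in the control of metabolic liver genes and of bile duct development, had the largest difference of the 9 probes. On the Ensembl probe it stood at -3.30 and -3.94 on GW3965 replicates a and b, and at -3.11 and -3.40 on DMSO replicates a and b. GW3965 replicate a lay above DMSO replicate b, so the groups overlapped, and the lowest array was GW3965 replicate b. Its means were -3.62 ± 0.45 with GW3965 and -3.26 ± 0.21 with DMSO (SD, n = 2 each). The log2 difference was -0.36 ± 0.29 (SE), with an interval of -1.12 to 0.40, or 0.460-fold to 1.32-fold (limma, unadjusted p = 0.276, adjusted p = 1). When 1 array was left out it was -0.68 if that was GW3965 replicate a, and -0.038 if it was GW3965 replicate b. Set within a letter, GW3965 minus DMSO was -0.18 between replicates a and -0.54 between replicates b. With the letter as a block the SE was 0.15 (limma, unadjusted p = 0.0593, adjusted p = 0.944). The RefSeq probe of Onecut1 was not well above background on any of the 4 arrays. Its processed signals of 2.40 and 2.48 with GW3965 and 2.74 and 2.79 with DMSO are values that the scanner software put in place of a signal within its error, so it was not tested and has no fold. The 2 Onecut1 probes therefore disagreed on whether the gene was detected, and the value above rests on the Ensembl probe alone.

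Prox1 stood at -3.66 and -4.12 on GW3965 replicates a and b, and at -3.68 and -3.87 on DMSO replicates a and b. Its processed signals lay between 38.8 and 42.4 before scaling, on a probe well above background on all 4 arrays. GW3965 replicate a was the highest array and GW3965 replicate b the lowest, with a log2 difference of -0.11 ± 0.24 (SE, interval -0.75 to 0.52).

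Gata4 stood at 0.80 and 1.48 on GW3965 replicates a and b, and at 0.79 and 1.13 on DMSO replicates a and b. Both replicates a lay close together and GW3965 replicate b stood highest. The group means were 1.14 ± 0.48 with GW3965 and 0.96 ± 0.24 with DMSO (SD, n = 2 each), with a log2 difference of 0.18 ± 0.31 (SE) and an interval from -0.61 to 0.97 (limma, adjusted p = 1). Without GW3965 replicate b the difference was -0.16, and without DMSO replicate b it was 0.35. Between replicates a GW3965 minus DMSO was 0.012, and between replicates b it was 0.35.

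For 7 of the 9 probes the gap between replicates was wider in each group than the treatment difference, as for 22936 of all 35479 probes tested. With 1 probe per gene this held for 6 of 8. Onecut1 and Foxa1 differed by more than their DMSO gaps of -0.29 and 0.089 and by less than their GW3965 gaps. The labels give both groups the letters a and b without saying what a letter shares. Replicate b minus replicate a had the same sign in both groups for 8 of the 9 probes, as for 74.3% of all probes tested. Cebpb was the exception, at -0.081 with GW3965 and 0.085 with DMSO. For Foxa2 (both probes), Foxa3, Onecut1 and Prox1, 5 probes of 4 genes, both replicates b lay below both replicates a, which held for 26.9% of all probes. For Foxa1, Cebpa and Gata4 both replicates b lay above both replicates a, as for 38.3% of all probes.

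By gene, the gap with GW3965 and then with DMSO was -0.92 and -1.36 for Foxa3. It was -0.72 and -0.33 on the brighter Foxa2 probe and -0.71 and -0.37 on the dimmer one. Onecut1 had gaps of -0.64 and -0.29, and Prox1 of -0.46 and -0.19. Upward gaps were 0.68 and 0.34 for Gata4, 0.30 and 0.12 for Cebpa, and 0.27 and 0.089 for Foxa1, the last turning to -0.022 with DMSO when arrays were centred on their median. That centring moved the gap of all probes by -0.13 with GW3965 and -0.11 with DMSO, and left the sign of the gap as it was in the other 7 of those 8 probes. The median size of the gap over the 9 probes was 0.64 with GW3965 and 0.29 with DMSO, against 0.30 and 0.28 over all probes tested, while the median size of the treatment difference was 0.11, against 0.10. With 1 probe per gene the median gap sizes were 0.55 with GW3965 and 0.24 with DMSO.

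**Figure D3:**
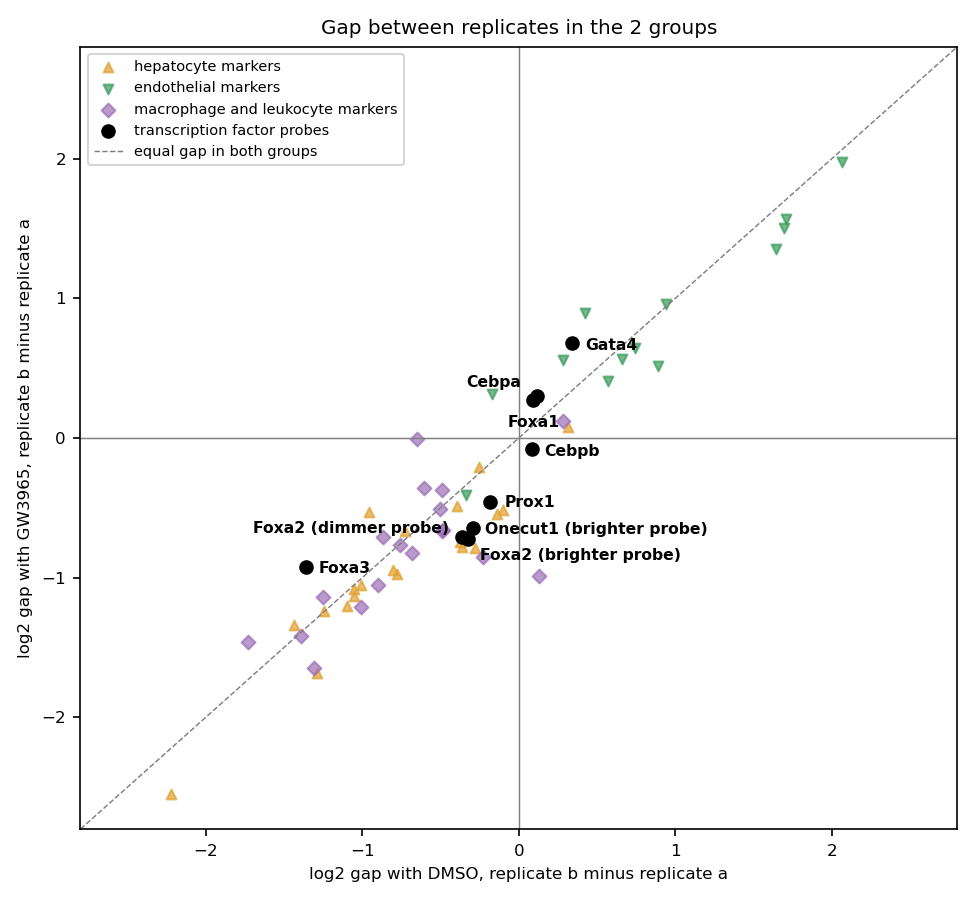
Gap between replicates, b minus a on the log2 scale, with GW3965 (vertical axis) against DMSO (horizontal axis) for the 9 tested probes of the hepatocyte factors and for the genes of 3 marker lists. Hepatocyte markers, and macrophage and leukocyte markers, sit mostly at lower left with Foxa2, Foxa3, Onecut1 and Prox1. Endothelial markers sit mostly at upper right with Gata4, Cebpa and Foxa1. Cebpb lies near 0, where its sign with DMSO turns with quantile or median scaling (-0.027 and -0.026).

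Markers of liver cell types moved between the replicates as well. Summed over 20 hepatocyte markers, the level relative to the 75th percentile was 4510 and 2640 on GW3965 replicates a and b, and 4293 and 3260 on DMSO replicates a and b, and 19 of the 20 were lower on both replicates b than on both replicates a. For macrophages and leukocytes the sums over 18 markers were 151 and 95.4 with GW3965 and 137 and 88.3 with DMSO, with 16 of 18 lower on both replicates b. For endothelial cells the sums over 13 markers were 63.6 and 90.2 with GW3965 and 59.9 and 91.3 with DMSO, with 11 of 13 higher on both replicates b. With quantile or median scaling or normexp correction these counts ran from 17 to 19 of 20, from 16 to 17 of 18, and 11 of 13. Over 13 stellate cell and fibroblast markers the sums were 110.0 and 91.1 with GW3965 and 102 and 94.9 with DMSO, and over 8 cholangiocyte markers 57.7 and 64.2 with GW3965 and 62.9 and 76.4 with DMSO. These sums do not follow most of their markers, since 6 of the 13 were higher and 6 lower on both replicates b, and 3 of the 8 higher and 3 lower. Among stellate cell and fibroblast markers Dcn had gaps of -1.38 with GW3965 and -1.18 with DMSO, while Acta2 had 1.61 and 1.78. Dcn and Acta2 were named after their values were seen. Foxa2, Foxa3, Onecut1 and Prox1 were lower on both replicates b, as most hepatocyte and macrophage markers and 26.9% of all probes were. Gata4 was higher on both replicates b, as most endothelial markers and 38.3% of all probes were. Cebpa and Foxa1 were higher there too, but their DMSO gaps shrank to 0.0064 and turned to -0.022 with median centring. A tie between a factor and a cell type was not tested. Scaling to the 75th percentile shifts all probes of an array alike. It made up most of the Prox1 gaps and a large part of the Onecut1 gaps, both on dim probes. A large part of the Foxa2 gaps and of the Foxa3 gap with GW3965 also came from scaling. It narrowed the upward gaps of Gata4, Cebpa and Foxa1. Before scaling, Prox1 signals were 40.4 and 38.8 on GW3965 replicates a and b, and 42.4 and 41.4 on DMSO replicates a and b. In the same order, Onecut1 signals were 51.9 and 43.9, and 63.0 and 57.1. The brighter Foxa2 probe had 2933 and 2346, and 2867 and 2539, and Foxa3 had 660 and 461, and 812 and 351. In RNA of whole cultures, fewer cells of a type and less RNA per cell cannot be told apart, and the part of either in these gaps was not tested.

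Other transcription factors of hepatocytes were described from a list of 17, of which 16 were measured. In limma 0 of the 16 were called (adjusted p), as 0% of all probes tested were, and 0 had an unadjusted p under 0.05, against 1.03%. Hnf4a, the nuclear receptor at the centre of the hepatocyte network, stood at 4.03 and 2.35 on GW3965 replicates a and b, and at 4.08 and 2.79 on DMSO replicates a and b. Its log2 difference was -0.25 ± 0.71 (SE), smaller than its gaps of -1.68 with GW3965 and -1.29 with DMSO. Replicate b was thus the lower one in both groups, as for Foxa2 and Foxa3. Creb3l3, a membrane-bound factor of fasting metabolism named after its values were seen, had gaps of -1.51 in either group and a difference of -0.071. Other factors on the list went the opposite way, as Klf15 did, with gaps of 0.97 with GW3965 and 1.27 with DMSO, and Klf9, with 0.72 and 0.86, both also named after their values were seen. Of the 16, 4 were higher and 8 lower on both replicates b than on both replicates a.

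Zhx2 and Foxo1 had the smallest p-values on that list. Zhx2, a repressor of fetal liver genes, stood at -3.26 and -3.09 on GW3965 replicates a and b, and at -3.65 and -3.63 on DMSO replicates a and b. The groups did not overlap, GW3965 being higher, with a log2 difference of 0.47 ± 0.19 (SE, limma, unadjusted p = 0.0618, adjusted p = 1). Foxo1, an insulin-regulated factor, stood at 2.07 and 2.26 with GW3965 and at 1.67 and 1.90 with DMSO, also without overlap, a difference of 0.38 ± 0.21. On this list, 3 genes lay without overlap above the DMSO arrays and 0 below, where 10.1% and 6.54% of all probes did. The other one was Rxra, the partner of LXR on DNA, named after its values were seen, at 0.14 ± 0.19.

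**Figure D4:**
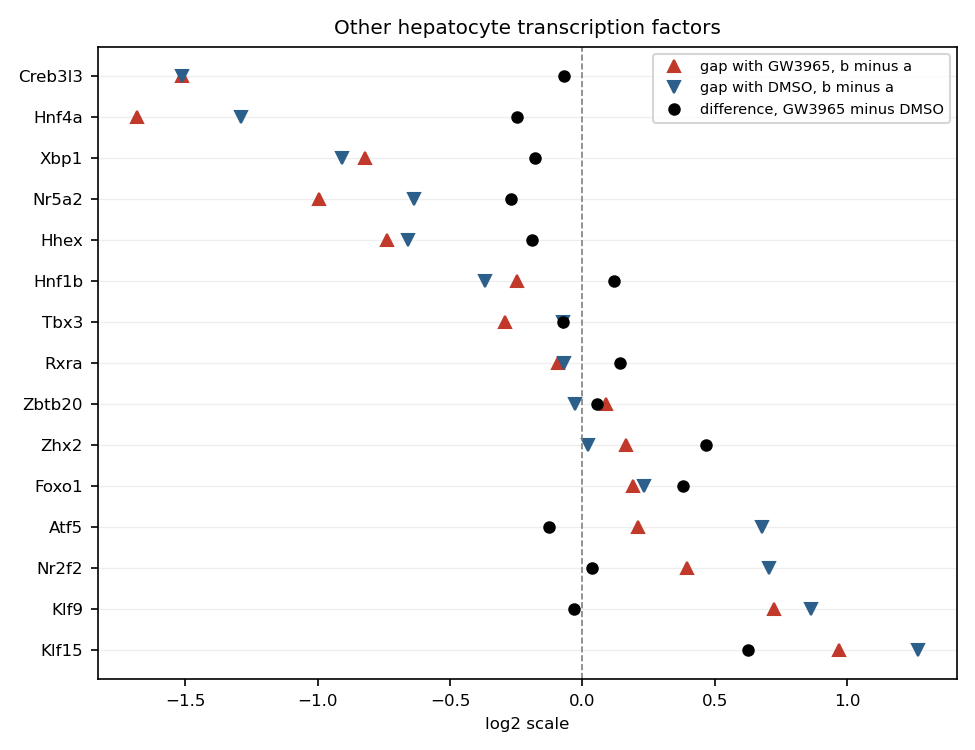
Gap between replicates (b minus a) with GW3965 and with DMSO, and the difference GW3965 minus DMSO, on the log2 scale for 15 of the 16 other hepatocyte transcription factors measured, ordered by the mean gap. Creb3l3 and Hnf4a have gaps below -1 in both groups, with differences of -0.071 and -0.25, while Klf15 and Klf9 lie at the other end, with gaps of 0.97 and 0.72 with GW3965 and 1.27 and 0.86 with DMSO.

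Paralogs and partners of the factors were listed as 20 genes, of which 16 were measured. In limma 0 were called and 0 had an unadjusted p under 0.05, against 0% and 1.03% of all probes tested. The median log2 difference of the 16 was -0.019, and 0 of them were without overlap between the groups, against 16.6% of all probes tested. The smallest p-values belonged to Onecut2, a paralog of Onecut1, at 0.16 ± 0.21 (SE), and to Gata5, at 0.13 ± 0.20. Cebpd, an acute phase paralog of Cebpb named after its values were seen, had gaps of -0.81 with GW3965 and -0.60 with DMSO, where Cebpb had -0.081 and 0.085. Gata6, the closest liver relative of Gata4 and also named afterwards, had gaps of 0.19 and 0.36 in the same order, and a difference of -0.031 ± 0.23. The factors of the circadian and PAR leucine zipper list, all 11 measured, had a median difference of 0.084 with 0 called, against 0% of all probes. On that list the smallest p-values were those of Dbp at -0.43 ± 0.22 and of Nr1d2 at -0.26 ± 0.26.

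Liver genes known as targets of the factors were listed as 24, of which 23 were measured. In limma 0 of these were called and 0 had an unadjusted p under 0.05, against 0% and 1.03% of all probes tested. The median log2 difference of the list was -0.027, which turned to 0.018 with quantile scaling. All 23 overlapped between GW3965 and DMSO, while 16.6% of all probes tested did not. Of the 23, 21 were lower on both replicates b than on both replicates a, as 26.9% of all probes were. That count was 18 with quantile scaling and 22 with median scaling or normexp correction. The list shares 9 genes with the hepatocyte markers. Otc, an enzyme of the urea cycle, differed by -0.29 ± 0.32 (SE), and Cyp7b1, an oxysterol hydroxylase, by -0.17 ± 0.25.

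Genes of fetal liver and of hepatocytes losing their identity in culture, 17 measured of 18, had a median log2 difference of -0.012, or 0.011 with quantile scaling. In limma 0 were called and 0 had an unadjusted p under 0.05, against 0% and 1.03% of all probes tested. Afp, the fetal counterpart of albumin, stood at 3.90 and 3.91 on GW3965 replicates a and b, and at 3.66 and 3.97 on DMSO replicates a and b, a difference of 0.10 ± 0.21 (SE). Tgfb1, a cytokine of fibrosis, differed by 0.43 ± 0.19 and Gpc3, a fetal liver glypican, by -0.45 ± 0.22, each without overlap between the groups. On this list 1 gene lay without overlap above the DMSO arrays and 1 below, where 10.1% and 6.54% of all probes did. Of the 17, 10 were higher on both replicates b and 4 lower, against 8 and 4 with quantile or median scaling, 9 and 6 with normexp correction, and 38.3% and 26.9% of all probes.

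For the marker lists, 0 genes were called and 0 had an unadjusted p under 0.05, against 0% and 1.03% of all probes tested. The 2 genes with the smallest p on each were Cyp1a2 (0.30 ± 0.21, SE) and Ambp (-0.24 ± 0.33) for hepatocytes, and Tek (0.25 ± 0.22) and Fcgr2b (-0.19 ± 0.29) for endothelial cells. For macrophages and leukocytes they were Lyz2 (-0.30 ± 0.27) and Cd5l (0.71 ± 0.75). Stellate cells and fibroblasts had Pdgfrb (0.39 ± 0.19) and Col3a1 (0.21 ± 0.25), and cholangiocytes had Krt23 (0.49 ± 0.22) and Muc1 (0.36 ± 0.26), the last well above background on 3 of the 4 arrays.

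Likeness to each factor was measured as the root mean square difference of log2 values over the 4 arrays, after each probe was centred on its own mean, among 14995 named genes. Nearest to Foxa3 were Madcam1, at 0.0434, and Amt, at 0.0521, and 38 genes lay within 0.1. For Onecut1 they were Ell3, at 0.00937, and Speer4d, at 0.0348, with 89 genes within 0.1. For Gata4 they were Klk11, at 0.0171, and Camkv, at 0.0182. Foxa2 was nearest to Cc2d2a, at 0.0130, and Dmtf1, at 0.0168. The flatter profiles had many genes this near, from 1395 within 0.1 for Prox1 (nearest Gmfg and Car8) to 2845 for Cebpb (nearest Aggf1 and Ganab), with 1616 for Cebpa (nearest Cbarp and Speg) and 1828 for Foxa1 (nearest Ss18 and Zbtb41). These values rest on 4 arrays and are a description.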

How the data were processed

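Arrays were 1-colour Agilent arrays of total RNA labelled with Cy3, 1 per sample. Per the file headers, the deposited intensity is the processed signal of Agilent Feature Extraction. It is corrected for background and spatial trends, on a linear scale and not scaled between arrays. The headers give version 10.7.3.1 for the step that places the grid. For Feature Extraction, version 11.5.1.11 is the one given per the submitters' processing notes. The authors' deposited values per probe equalled that intensity at all 62976 features, with differences of 0.

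After log2, replicate spots of a probe were averaged, leaving out outlier spots (0 among the members), and scaled by subtracting the 75th percentile of the array's probes, controls left aside. A probe was kept if it was well above background on each array of GW3965, of DMSO or of both, as 35479 of 55681 were, and 9 were dropped for outlier spots. Saturated spots numbered 0. Each probe was fitted with limma 3.58.1 in R 4.3.3 (with version 1.17.8 of the data.table package), with the group as the only term, a prior of 2.85 degrees of freedom beside 2 residual ones, two-sided tests and Benjamini-Hochberg adjustment over all probes kept, at a threshold of 0.05. Gene lists used the brightest kept probe of each name, from RefSeq for 26762 probes and from the files for 28919. The fit was also run on simulated data with independent arrays. Those data held no gap shared by a replicate letter, so they do not test the fit for such gaps. Figures were drawn with matplotlib 3.10.9.

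Members and lists were chosen with earlier results of these data known. The rule for named genes takes every member probe, the 2 genes with the smallest p on each other list, any listed gene without overlap and with a fold of at least 1.5, and Hnf4a, Alb, Afp, Abca1 and Srebf1. One gene that this rule names is not reported here. For likeness it takes the 2 nearest genes to each member. Alternatives were other scalings, background correction, filters, probe summaries and variance priors, the replicate letter as a block, a threshold of 0.1 and each array left out in turn. The number of arrays limits the precision.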

Additional observations from a re-analysis of the deposited data

How the results depend on the processing

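Under the alternatives other than leaving out an array, 0 probes were called, except with the replicate letter as a block, where 16 were called (10 higher), none of them a probe of the hepatocyte factors, whose smallest adjusted p was then 0.944, for Onecut1. The block cut the SE of Foxa3 to 0.16 and left its difference at 0.017. Labels do not say that a letter marks a shared animal or batch, and the gaps of the groups correlated at 0.688 over all probes kept, which are not independent replicates. The median of the 9 probes stayed between -0.12 and -0.025 under those alternatives. Each difference kept its sign under them, except Foxa3, at -0.033 with median centring and -0.0072 with normexp correction. The cause was not tested. Against 365 probes at an unadjusted p under 0.05, there were 77 with normexp correction, 1072 with no filter, 149 well above background on all 4 arrays, 203 with the brightest probe and 233 with the mean per gene, 196 with an intensity trend, 1957 with the block and 710 without DMSO replicate b.

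With each array left out in turn, 0 to 1 probes were called, the 1 without DMSO replicate b, and the median of the 9 was lowest, at -0.34, without GW3965 replicate a and highest, at 0.0085, without DMSO replicate a. The range of the log2 difference was -0.25 to 0.023 for Foxa1, -0.43 to 0.29 for the brighter and -0.38 to 0.33 for the dimmer Foxa2 probe, and -0.66 to 0.70 for Foxa3. It was -0.041 to 0.26 for Cebpa, -0.11 to -0.022 for Cebpb, -0.68 to -0.038 for Onecut1, -0.34 to 0.12 for Prox1 and -0.16 to 0.52 for Gata4. The lone array of a group is then assumed to vary like the other group. Signal over background limits the Onecut1 RefSeq probe.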
